A study of Mus musculus with 4 samples.

Results

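The olfactory receptor promoters described here are the 1024 rows, of 26354 in the deposited promoter table, whose gene symbol starts with Olfr followed by a number. The symbol alone chose them, and no measured value was used. H3K9me2 (dimethylation of lysine 9 on histone H3) was profiled by ChIP-seq in ex vivo aortic vascular smooth muscle cells (VSMCs) of male C57Bl/6J mice, and the age of the mice is not given in the sources used here. The aortic medial layer was taken directly from tissue after manual removal of the adventitia and the endothelium, so the cells were neither cultured nor sorted, and how many mice each library pooled is not given. The 4 libraries came from 2 experiments, v102 and v134, which each paired a ChIP library made with an H3K9me2 antibody with a library of its input chromatin, taken without antibody. The question addressed here is how much H3K9me2 this family carries in a cell type outside the nose, compared with every other promoter of the table.

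Olfactory receptors are G protein-coupled receptors of the sensory neurons of the nose and form the largest gene family in the mouse genome. Each mature olfactory neuron expresses a single allele of a single receptor gene, and the other receptor genes are kept silent in heterochromatin. The genes stand in dense arrays on many chromosomes, with a short coding exon and an upstream start site that is poor in CpG. H3K9me2 is laid down mainly by the methyltransferases encoded by Ehmt2 and Ehmt1 and is associated with silent chromatin, where it can cover long domains.

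By gene symbol, 1016 of the 1024 members matched 1 gene of the GENCODE annotation of GRCm38, 1008 of them protein coding and 8 pseudogenes. That annotation holds 1403 Olfr genes, 1133 of them protein coding, so the members are a part of the family. They lie on 18 chromosomes. With neighbours joined when their starts were no more than 0.5 Mb apart, 1004 members fell into 42 clusters of 2 or more, and 12 stood alone. The annotation that placed the counted windows is not given in the sources used here, and this matters more for olfactory receptors than for other genes. Among members with a start in both annotations, the RefSeq and GENCODE starts lay within 1 kb of each other for 185 of 846 (21.9%), compared with 12811 of 14256 other rows (89.9%). Among the 185 members with starts that close, 84.3% were above input by the test described below, and among the 661 with starts farther apart 84.7% were.

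The sequence ahead of the start is shown for 6 members, read from RefSeq records of GRCm38.p6, each 5′ to 3′ on the strand of the gene and restricted to bases before both annotated starts. Among members with starts within 250 bases of each other and at least 40 summed input reads, Olfr70 and Olfr1414 had the lowest H3K9me2/input ratios and Olfr1335 and Olfr108 the highest. Olfr558 and Olfr544 are shown because their products are known to act outside the nose. Capitals mark CG dinucleotides and, as the run of 8 capitals in Olfr108, a match to CCCNNGGG, the core recognised by Ebf factors.
Olfr70: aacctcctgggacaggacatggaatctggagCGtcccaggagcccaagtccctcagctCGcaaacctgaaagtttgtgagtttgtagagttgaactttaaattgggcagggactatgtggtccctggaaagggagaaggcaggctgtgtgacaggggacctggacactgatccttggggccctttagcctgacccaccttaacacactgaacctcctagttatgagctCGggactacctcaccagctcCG
Olfr1414: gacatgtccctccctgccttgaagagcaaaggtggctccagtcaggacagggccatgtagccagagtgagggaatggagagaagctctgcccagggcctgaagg
Olfr558: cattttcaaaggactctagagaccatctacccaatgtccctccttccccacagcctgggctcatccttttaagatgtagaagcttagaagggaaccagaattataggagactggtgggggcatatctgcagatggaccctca
Olfr544: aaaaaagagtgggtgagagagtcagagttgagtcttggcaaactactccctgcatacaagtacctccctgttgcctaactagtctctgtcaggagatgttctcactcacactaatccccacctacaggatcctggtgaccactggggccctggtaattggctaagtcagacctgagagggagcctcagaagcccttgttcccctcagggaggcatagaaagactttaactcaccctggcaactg
Olfr1335: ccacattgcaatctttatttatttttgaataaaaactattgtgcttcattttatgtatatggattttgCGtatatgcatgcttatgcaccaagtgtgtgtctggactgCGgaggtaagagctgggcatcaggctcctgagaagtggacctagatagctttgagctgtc
Olfr108: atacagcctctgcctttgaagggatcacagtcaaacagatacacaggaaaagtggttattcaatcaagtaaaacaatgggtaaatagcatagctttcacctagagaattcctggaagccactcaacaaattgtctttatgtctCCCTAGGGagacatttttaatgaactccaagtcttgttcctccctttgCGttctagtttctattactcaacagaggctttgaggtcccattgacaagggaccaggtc

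These stretches lie at chr4:43700808-43701057 (minus strand) for Olfr70, chr1:92518662-92518765 (minus) for Olfr1414, chr7:102702073-102702214 (plus) for Olfr558, chr7:102488314-102488557 (minus) for Olfr544, chr4:118809945-118810112 (minus) for Olfr1335 and chr17:37445230-37445479 (plus) for Olfr108. Olfr70 was the richest in CG, with 4 dinucleotides and a GC content of 54.4% over 250 bases. Olfr1335 and Olfr108 had a GC content of 40.5% and 41.6%. Over the 300-base RefSeq records, read on both strands, CCCNNGGG was present in 3.30% of 849 members, 9.73% of the 185 members with starts within 1 kb and 13.4% of 27025 promoters of all genes. The homeodomain core TAATTA was found in 17.9% of members and 5.31% of all promoters, and TATAAA in 40.2% and 14.2%. The median GC content of these records was 35.3% in members and 52.7% in all promoters. A match is a description of the letters only.

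Summed over the family, olfactory receptor promoters took a larger share of ChIP reads than of input reads in both experiments. In v102 the family held 14463 ChIP reads, 8.91% of the promoter reads of that library (95% Wilson interval 8.78 to 9.05), compared with 16146 input reads, 2.61% (2.57 to 2.65). In v134 it held 23017 ChIP reads, 10.0% (9.90 to 10.1), compared with 34327 input reads, 3.17% (3.13 to 3.20). Both ChIP shares lay above both input shares, at 9.47% ± 0.785 and 2.89% ± 0.394 (SD, n = 2 each), and the exact two-sided permutation test gave p = 0.333, the smallest that 2 libraries against 2 allow. Library totals over the promoter rows ranged from 162233 to 229605 reads in ChIP and from 619100 to 1084349 in input, and intervals cover counting error only.

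The H3K9me2/input ratio of the family was 3.66 times that of all other rows in v102 (95% interval 3.57 to 3.74) and 3.41 times in v134 (3.35 to 3.47). The 30 mitochondrial rows held 14.3% and 7.53% of input reads but 0.20% and 0.175% of ChIP reads. With these rows left out the family stood 3.13 times (3.05 to 3.20) and 3.15 times (3.10 to 3.20) above the other nuclear promoters, and all relative ratios of clusters, sets of neighbours and flanking genes below use the nuclear promoters as reference.

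Almost all members lay on the high side. For each promoter the log2 ratio of ChIP to input, each scaled to its library's promoter total after adding 1 read, had a median of 1.74 in v102 and 1.70 in v134 over the members, compared with −0.17 and −0.44 over the other rows. The 5th to 95th percentiles of the members ran from 0.24 to 2.93 in v102 and from 0.24 to 2.49 in v134. The members thus lay high as a body and not through a small set of outliers. The log2 ratio was above 0 in both experiments at 971 members, below 0 in both at 17, and split at 36. Over all 26354 rows these counts were 8504, 11866 and 5984. No member lacked ChIP reads in both experiments, while 523 of the 25330 other rows did.

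**Figure D1:**
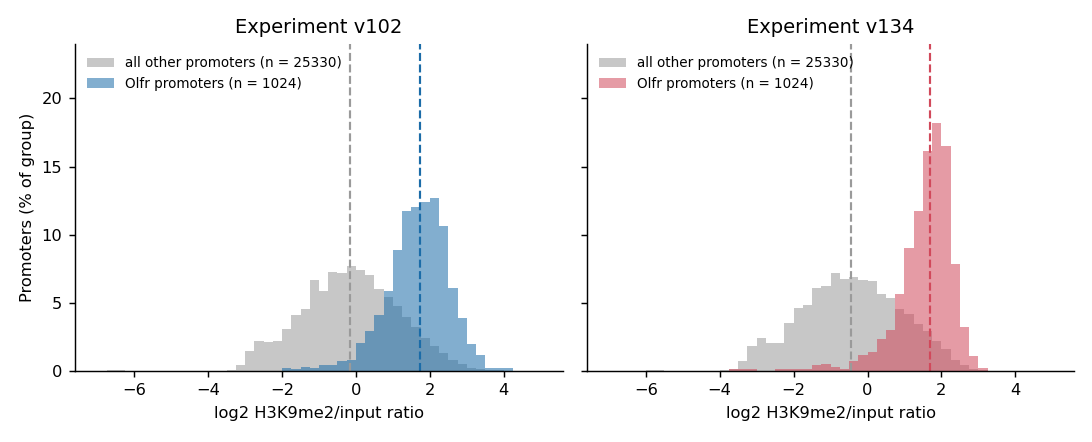
Histograms of the log2 H3K9me2/input ratio (x axis) as a percentage of each group (y axis) for the 1024 Olfr promoters (coloured) and the 25330 other promoters (grey) in each experiment, with dashed lines at the medians. The Olfr medians of 1.74 and 1.70 lie to the right of the grey medians of −0.17 and −0.44 in both panels.

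By edgeR's quasi-likelihood test across all 26354 rows with Benjamini-Hochberg adjustment at 0.05, 862 members (84.2%) were above input, where 18.6% of all rows were. Below input were 4 members (0.391%), where 17% of all rows were, and 158 members were not called. The median log2 fold change of ChIP over input was 1.85 in members and −0.43 in the other rows. With the experiment as a block, 799 members were above input and 3 below, against 15.8% and 8.3% of all rows. DESeq2 gave an adjusted p for 881 members and called 677 above and 0 below (3 below at an unadjusted p under 0.05), where it called 33.7% and 0.323% of the 8982 rows with an adjusted p. Expressed as RPM, reads scaled to the promoter total of their library, both ChIP libraries exceeded both inputs at 930 members (90.8%), against 25.8% of all rows, and both lay under both inputs at 14 members, against 46.1%.

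In the top quartile of both experiments were 838 members (81.8%), against 17.8% of all rows, and 431 members (42.1%) were in the top 10% of both, against 6.07%. The bottom quartile of both experiments, which held 12.7% of all rows, held 3 members. Single promoters were covered thinly, with a median of 13 reads in v102 and 22 in v134 for ChIP, and 15 and 33 for input. Across the 1024 members the log2 ratios of the 2 experiments had a Pearson r of 0.511 and a Spearman rho of 0.426, where the points share the same 4 libraries and members of a cluster are not independent.

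The other chemoreceptor families of the table lay on the same side. Of 196 vomeronasal receptor promoters (Vmn1r and Vmn2r), which encode pheromone receptors, 159 (81.1%) were above input and 0 below. Of 51 taste and trace amine receptor promoters (Tas1r, Tas2r and Taar), 29 (56.9%) were above input and 0 below. At an unadjusted p under 0.05, edgeR placed 1 vomeronasal and 0 taste or trace amine receptor promoters below input, and DESeq2 called 0 in either family. The pooled ratio of the olfactory receptors was 1.18 times that of the vomeronasal receptors in v102 (1.11 to 1.26) and 1.06 times in v134 (1.02 to 1.11). Against the taste and trace amine receptors it was 1.62 times in v102 (1.46 to 1.81) and 1.40 times in v134 (1.29 to 1.51).

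Olfactory receptor windows were poor in GC, with a median of 36.5% and 7 CpG in the 2 kb around the GENCODE start, compared with 51.4% and 60 in the other matched rows. GC content moved with the calls in both groups. Between 30% and 35% GC, 88.9% of 351 members and 55.3% of 161 other nuclear promoters were above input. Between 40% and 45% GC the shares were 71.5% of 179 members and 34.6% of 2680 others, and between 45% and 50% they were 60% of 50 members and 16.9% of 4920 others. Relative to nuclear promoters of the same GC class of 5 points, the family's ratio was 1.74 times in v102 and 1.58 times in v134, a comparison added after the mitochondrial reads had been seen. With the GC trend removed, 475 of the 1016 members with a GC value (46.8%) were in the top quartile of both experiments. The 17.8% of all rows given above is for ratios before this removal and is no reference for that share. No share of all rows after the removal is given here, so the 46.8% is not read as high or low. The part of GC content in the ratio was not tested.

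**Figure D2:**
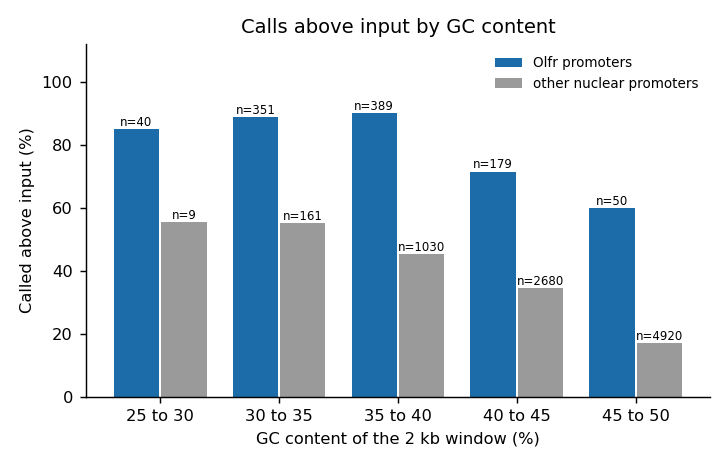
Bars give the percentage of promoters called above input (y axis) by GC content of the 2 kb window (x axis) for Olfr promoters (blue) and other nuclear promoters (grey), with the number of promoters on each bar. In each of the 5 classes the Olfr bar is the taller, from 88.9% against 55.3% at 30% to 35% GC to 60% against 16.9% at 45% to 50% GC.

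H3K9me2 was above input in most gene clusters. With the reads of each cluster summed into 1 feature, the edgeR test placed 38 of 42 clusters above input, among them all 22 clusters of 10 or more members. Over these 22 the median ratio relative to other nuclear promoters was 3.17 in v102 and 3.25 in v134. In the largest cluster, Olfr987 to Olfr1272 on chromosome 2 with 197 members over 4954 kb, the relative ratio was 2.86 (2.71 to 3.02) in v102 and 3.06 (2.95 to 3.19) in v134, and 166 members were above input. In Olfr151 to Olfr986 on chromosome 9 it was 3.59 (3.34 to 3.86) and 3.5 (3.32 to 3.69), with 89 of 93 members above input. The highest of the large clusters were Olfr433 to Olfr220 on chromosome 1, at 4.39 (3.7 to 5.22) and 4.50 (3.97 to 5.11) with all 14 members above input, and Olfr62 to Olfr1328 on chromosome 4, at 4.63 (3.86 to 5.56) and 3.88 (3.37 to 4.47) with all 13. The lowest of them was Olfr30 to Olfr311 on chromosome 11, at 1.87 (1.54 to 2.28) and 1.65 (1.40 to 1.93), where 6 of 17 members were above input.

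The 4 clusters not called were small. Olfr70 to Olfr155 on chromosome 4, with 6 members, had a relative ratio of 0.932 (0.627 to 1.39) in v102 and 0.65 (0.446 to 0.946) in v134, and none of its members was above input by edgeR or DESeq2, also at an unadjusted p under 0.05. Olfr222 to Olfr225 on chromosome 11, with 3 members, had 1.02 (0.596 to 1.76) and 0.285 (0.139 to 0.581), and these intervals do not overlap. The others were Olfr462 to Olfr464 and Olfr372 to Olfr374, with 3 members each.

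**Figure D3:**
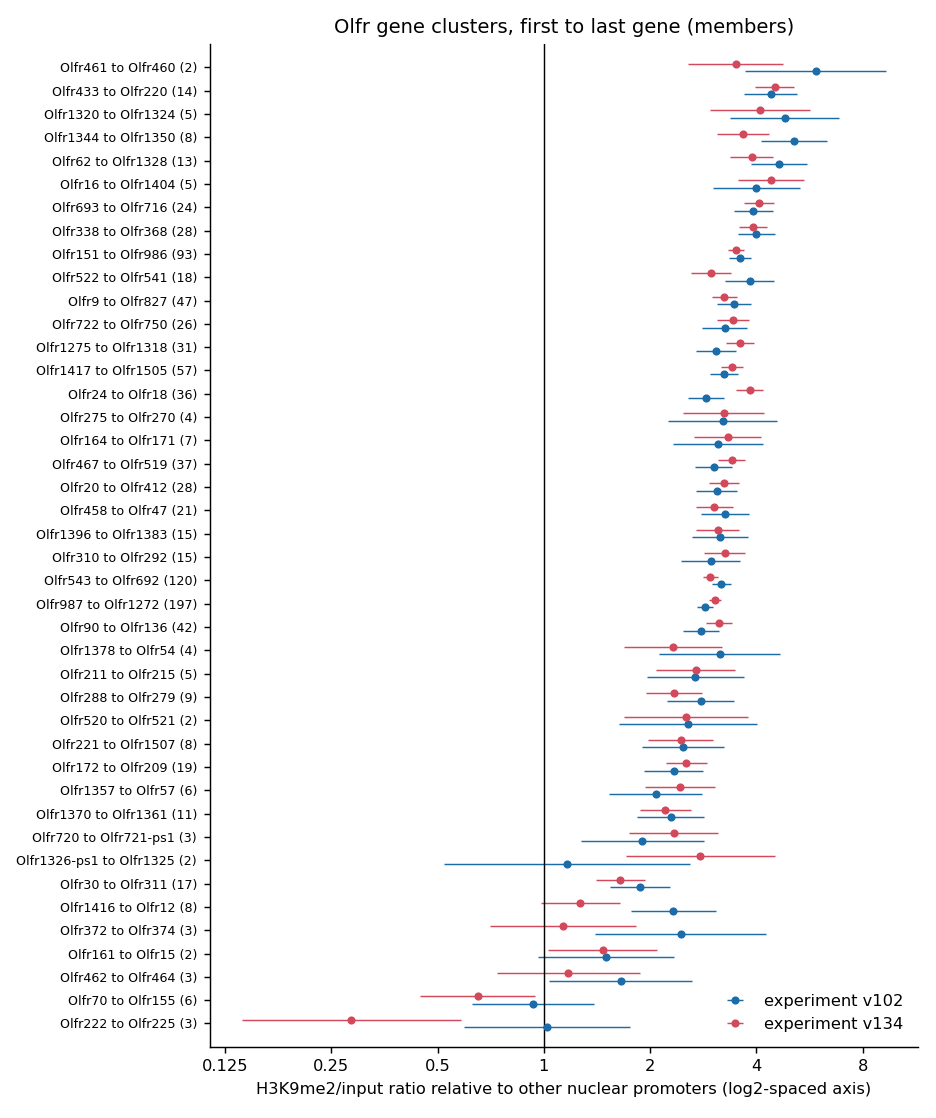
Points give the H3K9me2/input ratio of each of the 42 Olfr clusters relative to other nuclear promoters (log2-spaced x axis) in experiments v102 (blue) and v134 (red), with 95% counting intervals, and rows name the first and last gene with the number of members. Over all 42 clusters the medians are 3.05 in v102 and 3.08 in v134, and Olfr70 to Olfr155 and Olfr222 to Olfr225 lie at or under 1.

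The share above input grew with the size of the cluster. Of the 12 members that stood alone, 5 (41.7%) were above input with a median log2 ratio of 0.87. In clusters of 2 to 9 members 63 of 95 (66.3%) were above input with a median of 1.45, and in clusters of 10 or more 787 of 909 (86.6%) with a median of 1.75. Within the large clusters, the outermost 2 members at each end were above input in 55 of 88 cases (62.5%), and the inner members in 732 of 821 (89.2%). Median GC content was 38.6% in members that stood alone, 42.3% in clusters of 2 to 9 and 36.1% in clusters of 10 or more. It was 39.1% in the outermost and 35.7% in the inner members, and its part in either comparison was not tested.

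Neighbouring members resembled one another. Over 962 pairs of adjacent members the mean log2 ratios had a Pearson r of 0.402, and when v102 at a promoter was set against v134 at its neighbour, r was 0.303. The pairs share members and libraries, and these values are descriptions. In table order, members formed 131 runs of consecutive rows, the longest of 56 rows from Olfr996 to Olfr1095. The longest run in which every row was above input held 37 members, from Olfr876 to Olfr919 on chromosome 9, with log2 ratios from 1.46 to 2.56. It ended at Vwa5a, which was below input with a log2 fold change of −1.78 (edgeR, adjusted p = 0.0378, or 0.0812 with the experiment as a block). Outside the receptor families, as set by symbol, the longest such run was 57 rows.

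Cutting the clusters of 20 or more members into 72 sets of 10 or more neighbours showed where the level changed. The relative ratio ranged from 1.12 to 4.40 in v102 and from 1.33 to 4.60 in v134, with medians of 3.25 and 3.36, and over the 72 sets the log2 values of the 2 experiments had a Pearson r of 0.718. The lowest set was Olfr90 to Olfr101 on chromosome 17, at the end of the array that lies beside the major histocompatibility complex. It had 1.12 (0.832 to 1.5) in v102 and 1.33 (1.06 to 1.67) in v134, while the next set in the same cluster, Olfr102 to Olfr114, had 3.00 (2.38 to 3.78) and 3.67 (3.11 to 4.32). In the class I cluster the first 2 sets, Olfr543 to Olfr553 and Olfr554 to Olfr564, had 2.41 and 2.31 in v102 and 1.76 and 1.71 in v134. Farther along the same cluster, Olfr593 to Olfr608 had 4.13 (3.33 to 5.12) and 3.88 (3.34 to 4.51). In the largest cluster Olfr1020 to Olfr1031 had 1.5 (1.12 to 2.02) and 2.43 (2.00 to 2.95). Median GC content was 39.1% in Olfr90 to Olfr101 and 36.5% in Olfr102 to Olfr114. It was 43.5% and 41.3% in the first 2 class I sets, 35.2% in Olfr593 to Olfr608 and 33.4% in Olfr1020 to Olfr1031. Over the 72 sets the Spearman rho between the ratio of a set and its median GC content was 0.0086. The part of GC content in the steps named here was not tested.

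**Figure D4:**
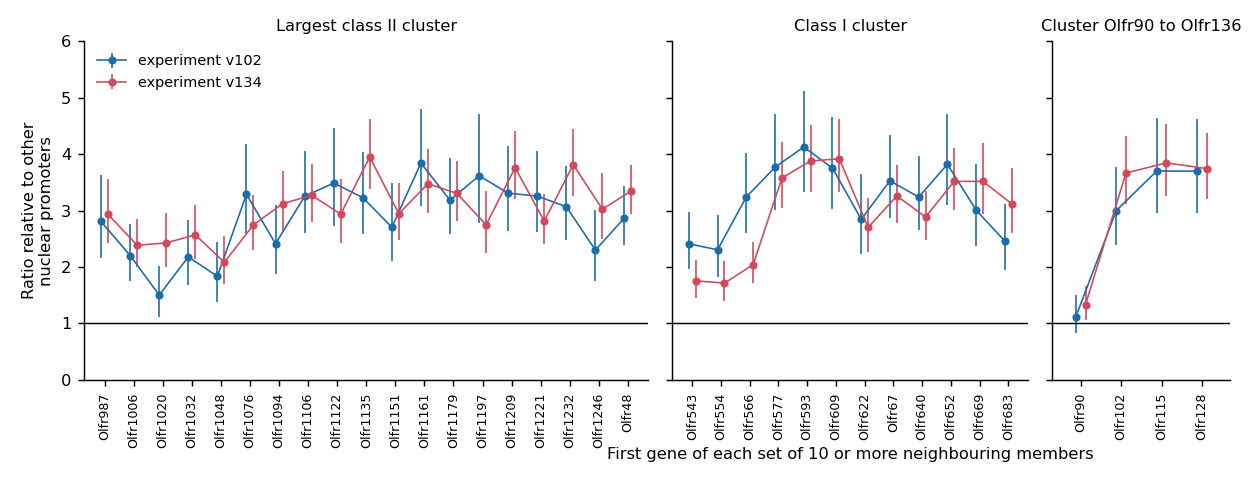
Points joined by lines give the H3K9me2/input ratio relative to other nuclear promoters (y axis) for successive sets of 10 or more neighbouring members (x axis, named by the first gene) along 3 clusters, in v102 (blue) and v134 (red), with 95% counting intervals. The set that starts at Olfr90 lies near 1, at 1.12 and 1.33, and the following set lies at 3.00 and 3.67.

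Class I receptors, the fish-like class that binds mainly water-soluble odorants, lie in a single array on chromosome 7, taken here as the 120 members of the cluster from Olfr543 to Olfr692. The pooled ratio of class I relative to the 904 other members was 1.02 (0.954 to 1.09) in v102 and 0.932 (0.885 to 0.981) in v134, so no common direction was seen. Of class I members 85.8% were above input, and of the others 84.0%. Against the 105 class II members on the same chromosome the ratio was 0.902 (0.822 to 0.989) and 0.852 (0.794 to 0.914), below 1 in both experiments.

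The 10 members with the highest mean log2 ratio among those with at least 40 summed input reads were Olfr1385, Olfr66, Olfr60, Olfr981, Olfr1349, Olfr811, Olfr1350, Olfr414, Olfr851 and Olfr639. Their own ratios chose them, so these values are a description. At Olfr1349 the ChIP held 51 and 49 reads in v102 and v134, and the input 19 and 40, or 314 and 213 RPM in ChIP and 30.7 and 36.9 in input. Its neighbour Olfr1350, on chromosome 7 like Olfr1349, had 259 and 200 RPM in ChIP and 25.8 and 40.6 in input. Both ChIP libraries lay far above both inputs at each of these promoters. At Olfr414 on chromosome 1 the ChIP held 33 and 41 reads and the input 21 and 25, a log2 fold change of 2.91 ± 0.36 (SE). Olfr60 rested on 4 input reads in v102, where its log2 ratio was 4.13, compared with 1.86 in v134. In the window of Olfr1385, 47.1% of all 75-base stretches occur elsewhere in the family's windows, so reads there may not be assigned to a single gene.

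The 4 members below input were Olfr225, Olfr649, Olfr90 and Olfr1009. Olfr225, annotated as a polymorphic pseudogene, on chromosome 11 (59610585 to 59615060, plus strand) held 2 and 0 reads in ChIP compared with 24 and 60 in input, or 12.3 and 0 RPM in ChIP and 38.8 and 55.3 in input. Its log2 fold change was −3.04 ± 0.80 (edgeR, adjusted p = 0.0012), and its unscaled ratio of 0.0238 had an interval of 0.00644 to 0.0880. Both ChIP libraries lay under both inputs. The rows on its far side, Mprip and 1700007J10Rik, were also below input, with log2 fold changes of −2.60 and −2.49 (edgeR, adjusted p = 0.0493 and 0.0733 with the experiment as a block). Olfr649 on chromosome 7 (1 and 0 ChIP reads, 18 and 45 input reads) and Olfr90 on chromosome 17 (1 and 0 ChIP reads, 18 and 38 input reads) had ratios of 0.0159 (0.00277 to 0.0909) and 0.0179 (0.00311 to 0.102).

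Olfr1009 stood between members above input. It held 3 and 1 reads in ChIP compared with 27 and 46 in input, a log2 fold change of −1.90 ± 0.70 (edgeR, adjusted p = 0.0234, or 0.0589 with the experiment as a block), while the next members Olfr1008 and Olfr1012 had log2 fold changes of 1.46 and 1.5 and were above input, Olfr1008 not with the block (0.0875). Of the 162 members not above input, 96 lay between 2 member rows, and at 39 of these both neighbours were above input. None of the 4 calls below input was kept without the v134 ChIP library or without the v134 input, and DESeq2 gave no adjusted p for any of the 4. The 10 lowest members also held Olfr71, Olfr70, Olfr95, Olfr1414, Olfr554 and Olfr522, which were not called. Of these Olfr554 turned with single libraries, at −2.14 without the v102 ChIP (edgeR adjusted p = 0.0359) and 0.21 without the v134 ChIP. Olfr71 had 18.5 and 13.1 RPM in ChIP and 42.0 and 48.0 in input, and Olfr70 had 24.7 and 13.1 in ChIP and 50.1 and 46.1 in input.

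Several receptors are known outside the nose. Olfr78, a receptor for short-chain fatty acids that is found in vascular smooth muscle, had 37.0 and 39.2 RPM in ChIP and 29.1 and 25.8 in input. Its log2 fold change was 0.64 ± 0.53 (edgeR, adjusted p = 0.343). Olfr558, also known from blood vessels, had 55.5 and 43.6 in ChIP and 30.7 and 33.2 in input, with a log2 fold change of 0.73 ± 0.48 (edgeR, adjusted p = 0.214). At both promoters both ChIP libraries exceeded both inputs, but neither passed the test. Olfr78 and Olfr558 lie at the low end of the class I cluster described above, in the set from Olfr554 to Olfr564. Olfr544, a receptor for azelaic acid, and Olfr1393, known from the kidney, were not called either, with log2 fold changes of 0.65 ± 0.41 and −0.76 ± 0.81. Olfr1393 had 0 and 4 ChIP reads, and its value was 0.12 without the v102 ChIP.

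Above input were Olfr2, a receptor for octanal, at 80.1 and 157 RPM in ChIP against 19.4 and 36.9 in input, Olfr16, known from sperm, at 117 and 87.1 against 21 and 37.8, and Olfr734, reported to bind the hormone asprosin, at 154 and 170 against 29.1 and 35. Olfr56 was not analysed here. Of 7 known outside the nose with a row, 3 were thus above input, where 84.2% of all members were. These genes were picked for what is known of them, and the difference in share was not tested.

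Receptors that are standard models of receptor choice were not all above input. Olfr17 had 265 and 170 RPM in ChIP and 48.5 and 40.6 in input, Olfr73, the eugenol receptor, 173 and 192 against 29.1 and 34.1, and Olfr1509 142 and 139 against 30.7 and 29.5, and each was above input. Olfr1509, Olfr1508 and Olfr1507 stand next to each other on chromosome 14, near a well-known enhancer of receptor choice. Olfr1507 had 67.8 and 74.0 in ChIP and 40.4 and 30.4 in input and was above input with a log2 fold change of 1.18 ± 0.42 (edgeR, adjusted p = 0.0205), a call lost under DESeq2 (adjusted p = 0.148) and on leaving out the v134 ChIP (0.130), the v102 input (0.0939) or the v134 input (0.294). Olfr1508, between them, had 43.1 and 69.7 in ChIP and 32.3 and 35 in input and was not called, with 0.92 ± 0.45, but it was called above input without the v102 ChIP (1.29, edgeR adjusted p = 0.0268) and where both inputs had to reach 20 reads (1.27, 0.017), and it fell to 0.48 without the v134 ChIP. Olfr151 was not called, with 0.81 ± 0.48, and its value rested on single libraries, at 1.26 without the v102 ChIP (edgeR adjusted p = 0.0393) and 0.16 without the v134 ChIP. Olfr545 was not called, with −0.35 ± 0.67, and Olfr160 was not analysed here.

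Promoters whose symbol names no chemoreceptor family were compared by their distance from the 22 large clusters. Symbols alone set this group, so receptor genes or pseudogenes under other names may be among them. Protein-coding genes alone were above input in 27 of 77 cases (35.1%) inside a cluster and 9 of 35 (25.7%) within 50 kb of its ends. Of all 92 promoters inside a cluster 37 (40.2%) were above input, and of the 40 within 50 kb of its ends 13 (32.5%). The share was 22.0% of 50 at 50 to 100 kb, 10.0% of 90 at 100 to 200 kb, 12.3% of 211 at 200 kb to 0.5 Mb, 9.46% of 317 at 0.5 to 1 Mb and 14.1% of 609 at 1 to 2 Mb. The pooled ratio relative to other nuclear promoters fell from 1.74 (1.60 to 1.89) and 1.87 (1.75 to 1.99) inside the clusters to 1.30 (1.15 to 1.47) and 1.10 (0.988 to 1.22) at 50 to 100 kb. Beyond 100 kb it followed no single direction, at 0.683 and 0.778 at 100 to 200 kb, 0.944 and 0.958 at 200 kb to 0.5 Mb, 0.746 and 0.721 at 0.5 to 1 Mb, and 0.941 and 0.940 at 1 to 2 Mb. Median GC content was 45.1% inside, 50.1% at 100 to 200 kb and 51.2% at 1 to 2 Mb, and its part was not tested.

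**Figure D5:**
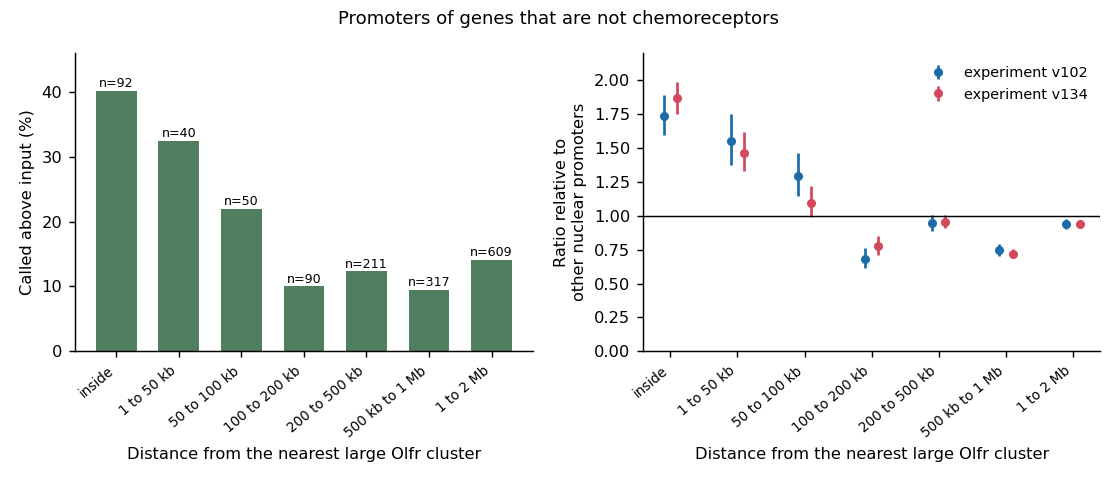
Left, bars give the percentage called above input (y axis) among promoters whose symbol names no chemoreceptor family, by distance from the nearest Olfr cluster of 10 or more members (x axis), with the number of promoters. Right, points give their H3K9me2/input ratio relative to other nuclear promoters in v102 (blue) and v134 (red) with 95% counting intervals, at 1.74 and 1.87 inside and under 1 in every class beyond 100 kb.

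Among the promoters inside clusters, the embryonic β-globin genes Hbb-y and Hbb-bh1, which lie within the class I array, were above input with log2 fold changes of 2.07 and 2.30. H2-M2, a class Ib histocompatibility gene within the chromosome 17 array, reached 2.74, and Pramel7, of a family active in the germline and early embryo, 2.51. Below input were 9 of the 92, where 17% of all rows were, namely Lpxn, Dtx4, Zfp91, Ccnb1ip1, Osgep, Apex1, Btnl9, Mgat1 and Vwa5a. With the experiment as a block only Lpxn, Dtx4 and Zfp91 of these 9 kept the call, and 31 of the 92 promoters were above input. Over all rows the block placed 8.3% below input and 15.8% above. The starts of the 9 lay between 14.6 kb (Vwa5a) and 150 kb (Osgep) from the nearest member. Lpxn, a focal adhesion protein, held 0 and 1 reads in ChIP compared with 19 and 51 in input.

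Few of the genes that act with the receptors were above input. Of 29 genes of olfactory signal transduction, receptor export and receptor choice, all with a row, 2 were above input, 8 below and 19 not called, with a median log2 ratio of −1.03, compared with 18.6% above and 17% below over all rows. With the experiment as a block 2 were above and 2 below (Pde4a and Atf5), where 8.3% of all rows were below. Above were Pde1c, a phosphodiesterase of the olfactory cilium, with 22 and 33 ChIP reads against 15 and 51 input reads, and Rtp1, which carries receptors to the cell surface, with 14 and 15 against 23 and 34. Below were Cnga4, Pde4a, Lhx2, Ebf3, Bptf, Atf5, Kdm1a and Ehmt2, of which Lhx2 and Ebf3 are transcription factors of receptor genes, Kdm1a is the demethylase LSD1, and Ehmt2 encodes an H3K9 methyltransferase. The calls of Lhx2, Ebf3, Kdm1a and Ehmt2 were lost with the block (edgeR, adjusted p = 0.103, 0.0848, 0.0776 and 0.102). Atf5, a factor of the feedback that follows receptor choice, had no ChIP read in either experiment, compared with 23 and 38 in input. The GC content of the 29 windows ran from 44.7% (Rtp2) to 69.4% (Ebf3). Of nuclear promoters outside the family, 16.9% were above input at 45% to 50% GC, 6.59% at 50% to 55% and 2.98% at 55% to 60%. The part of GC content in these calls was not tested.

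Of 13 marker and control promoters, 2 were above input, 5 below and 6 not called, with a median log2 ratio of −1.13. Over all rows 18.6% were above input and 17% below. Of 7 smooth muscle genes Smtn was above input (log2 fold change 1.57), Myh11 and Lmod1 below, and Acta2, Cnn1, Tagln and Des not called, with log2 fold changes from −1.55 (Cnn1) to 0.58 (Des). Of the genes of other cells of the vessel wall, Ptprc of leukocytes was above input (1.82), Pecam1 of endothelium and Pdgfra of fibroblasts below, and Cdh5 of endothelium not called. Of the study's ChIP controls, Actb was below input, and Magea2, the control for high H3K9me2, was not called (1.12 ± 0.66, edgeR adjusted p = 0.170). Magea2 held only 3 and 7 ChIP reads against 6 and 16 input reads, with log2 ratios of 1.12 in v102 and 1.15 in v134. With the experiment as a block 2 stayed below input, Myh11 and Actb, where 8.3% of all rows were below. Lmod1, Pecam1 and Pdgfra lost the call. Chromatin marks do not measure how many cells of each type the medial tissue held.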

How the data were processed

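H3K9me2 ChIP and input libraries of aortic medial VSMCs were sequenced as paired-end 75 bp reads. Per the labels and the study's methods, the authors trimmed reads with Trim Galore 0.4.2 and cutadapt 1.9.1, aligned them to GRCm38 with Bowtie2 2.2.7 and, in SeqMonk, counted those lying up to 1 kb either side of a start site. The study's methods dropped genes whose input held under 20 reads. The deposited table holds raw counts of the 4 libraries, their sums and the deposited ratio of summed counts, which is not scaled for library size and was not used. The annotation release and the handling of duplicate and multi-mapping reads are not given in the sources used here.

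ChIP and input counts were tested with edgeR 4.0.16 in R 4.3.3 (quasi-likelihood, TMM, Benjamini-Hochberg over all rows) and with DESeq2 1.42.0. The standard error of an edgeR log2 fold change is the change divided by the square root of F. In simulated counts over 26354 rows, edgeR called 44 of 50 rows raised 4-fold and 5 of 50 raised 2-fold. It called 0 of 50 lowered to 0.5, 3 of 50 lowered to 0.25 and 1 of 26154 unchanged. Lowered rows were thus recovered less often than raised ones in the simulation. Far more rows were called in the data, 18.6% above and 17% below input, so the adjustment differs and these rates do not carry over. The methods tie each ChIP to its own input, so ratios were taken within each experiment number. The main edgeR fit and DESeq2 held no term for this pairing, which entered only in the edgeR fit with the experiment as a block. The correlation of the ChIP difference with the input difference was 0.104 across rows. Chi-square divided by its degrees of freedom was 1.52 between the ChIP replicates and 1.28 between the inputs, above sampling noise. Whether the experiments came from separate mice is not given, so p-values measure the spread between these libraries.

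Windows, GC content and clusters came from GENCODE M21, and promoter sequences from RefSeq. Windows of 9 members overlap that of another row and share reads, and 159 members share 75-base stretches with other members. Members were set by symbol alone, though earlier results of these data were known when members and gene lists were chosen. Named promoters are 2 lists of receptors (outside the nose, much studied), the 10 highest and 10 lowest mean log2 ratios with at least 40 summed input reads, all members below input, and genes inside large clusters. Clusters, sets of neighbours and adjacent genes named beside these were chosen after their values were seen. Python 3.11.15 was used. Alternatives were library totals, minimum input of 20 reads in each input, a pseudocount of 5 reads, mitochondrial rows left out, GC trend removal (lowess, fraction 0.3), a cluster gap of 1 Mb and leaving out each library.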

Additional observations from a re-analysis of the deposited data

How the results depend on the processing

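Where both inputs reached 20 reads, 214 of 245 members were above input and 1 below, 208 were in the top quartile of both experiments, 2 genes of the transduction and choice list were below, and the median log2 ratio was 1.86, the family's relative ratio 3.76 and the class I ratio 1.02. Leaving out 1 library in turn gave 628 to 863 above and 0 to 6 below, and the median log2 ratio lay between 1.70 and 1.74 without an experiment. No share of all rows is given here for the minimum of 20 reads or without a library. Counts under these settings, here and below, are thus not read against all rows. Members below input numbered 0 by DESeq2, or 3 at an unadjusted p under 0.05. With the experiment as a block (the pairing), 799 members were above input, 2 genes of the transduction and choice list were below, and among members named by list, by the 10 highest or lowest ratios or as below input, the call of Olfr1009 alone was lost. The transduction list, 2 above and 8 below in the results, had 1 above and 0 below by DESeq2 (3 genes with an adjusted p, 2 below at an unadjusted p under 0.05), and 1 to 2 above and 1 to 7 below on leaving out a library, the lowest without the v102 input.

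The family summed into 1 feature had a log2 fold change of 1.85 ± 1.14 (edgeR, adjusted p = 0.192), and 1.87 ± 0.28 (adjusted p = 2.41e-09) with the mitochondrial rows left out, 1.71 (0.255) with library totals, and 1.76 to 2.05 (0.0609 to 0.373) without a library. The block gave an adjusted p of 0.104. The median log2 ratio was 1.79 with a pseudocount of 5 reads, 1.56 without mitochondrial rows and 1.11 after removal of the GC trend. The top quartile of both experiments held 475 members after removal of the GC trend, a count without a share of all rows beside it. The family's ratio relative to other rows, 3.53, was 3.14 without mitochondrial rows, 2.39 within GC classes and 1.66 within GC classes of nuclear rows, the last chosen after seeing the data. The class I ratio, 0.976, was 1.02 without experiment v134 and 0.932 without v102. The causes were not tested.

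The count of clusters above input lay between 34 and 39 of 42, or at 35 of 38 with a gap of 1 Mb. With the block, markers and controls below input fell from 5 to 2 and genes inside large clusters below input from 9 to 3. Over all rows the share below input fell from 17% to 8.3%. Low values of single members moved most on leaving out a library, as at Olfr1393 (0.12 without the v102 ChIP and −6.59 without the v134 ChIP, against −0.76). At a median of 13 and 22 ChIP reads in v102 and v134, depth limits single promoters.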

Other observations

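Among the 24 members whose symbol carries -ps, the mark of a pseudogene, 18 were above input and the median log2 ratio was 1.72. Members read from the plus strand were above input in 86.6% of 501 cases and members read from the minus strand in 81.7% of 515. Members with no 75-base stretch shared within the family were above input in 85.9% of 857 cases, and the 22 members with over 10% of such stretches shared in 45.5%. The median of summed input reads was 51 in the former and 37.5 in the latter. On chromosome 9, 95.3% of 129 members were above input, against 12.3% of the 1130 other rows there, and on chromosome 8 none of 5 members was by edgeR (1 at an unadjusted p under 0.05) or DESeq2.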
